A study of Aedes aegypti with 7 samples.

Results

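Argonaute 1 (AGO1) binds microRNAs (miRNAs), small RNAs cut from hairpins, and uses them to find and repress messenger RNAs with matching sites. In AGO1 CLIP-seq, ultraviolet light links AGO1 to the RNA it touches, an antibody pulls the complexes down, and the attached RNA is sequenced, so that reads pile up in peaks at bound miRNAs and bound transcripts. Peaks in genome assemblies are named by overlap with gene models, and a peak outside every model, repeat and known noncoding RNA has no name. The regions described here are the strong peaks of that kind, meaning peaks to which the authors gave no annotation class and which hold 20 or more counts summed over the 6 AGO1 CLIP-seq libraries. There were 694 of them among 100836 peaks in all, 43605 of which had no class. They were chosen by their total count, so the totals are a description with no test. Counts in 1 time alone can carry a peak past that threshold.

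The tissue was fat body of adult female Aedes aegypti, the yellow fever mosquito, of the UGAL/Rockefeller strain kept in the laboratory. Fat body is the insect organ that stores nutrients and, once a female has taken blood, makes yolk proteins for the eggs. One group was collected 24 h after a blood meal (24 h PBM), and the other 72 h after adult emergence without blood (72 h PE), with 3 libraries each. Females of 72 h PE were 3 or 4 days past eclosion, and the blood was given to mosquitoes of the same cage, so the times also differ in age. The design text calls the libraries independent biological replicates. Library totals over all peaks lay between 69424 and 132758 counts, and the 694 peaks held 76682 of the 575708 counts.

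Counts over peaks on the fat body yolk gene vitellogenin-A1 (AAEL010434) were 1931, 2394 and 1723 at 24 h PBM, against 30, 71 and 90 at 72 h PE. On lipophorin (AAEL009955), the lipid carrier of insect blood made in fat body, they were 931, 398 and 506 at 24 h PBM, against 150, 246 and 165 at 72 h PE. Markers of other tissues were also detected. The summed level of ovary and embryo miRNAs was 158 to 1055 CPM (counts scaled to the library total, here without further scaling) at 24 h PBM and 35.8 to 158 CPM at 72 h PE, with 4 of 8 on any peak and none for miR-309a, miR-286b, miR-2944a and miR-2944b. Midgut miRNAs summed to 1038 to 1589 CPM at 24 h PBM and 107 to 1095 CPM at 72 h PE, with 3 of 3 detected. Muscle miRNAs (2 of 2 detected) reached 6437 to 7541 CPM at 24 h PBM and 7059 to 10070 CPM at 72 h PE, and the neural miR-124 had 10.9 to 121 CPM at 24 h PBM and 57.6 to 65.3 CPM at 72 h PE. The part of other tissues in the results below was not tested, and fewer cells of a type and less RNA per cell cannot be told apart in whole tissue.

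One of the 694 peaks lay on a hairpin that the authors predicted as a miRNA. The peak supercont1.309:120074-120098 on the minus strand, 24 bases long, covered the mature strand of prediction supercont1.309_14750, whose hairpin runs over supercont1.309:120074-120134 (AaegL3 assembly). Both strands of the hairpin are shown because they are the only sequences that the deposited tables attach to any of the 694 peaks. They are written 5′ to 3′ from the authors' prediction table, and capitals mark bases 2 to 8, the seed through which a miRNA pairs with its targets.
mature strand, supercont1.309:120074-120097, minus strand: gUAGGCCGgcggaaacuacuugc
star strand, supercont1.309:120112-120134, minus strand: aGGGGUUUcuuucggccuccag

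In the authors' deposited table this prediction had a miRDeep2 score of 2096.3, 4075 reads on the mature strand and 34 on the star strand, and a significant folding test. No other of the 201 predictions held here shares its seed. AGO1 counts on the mature strand peak were 47, 28 and 30 at 24 h PBM, against 15, 31 and 30 at 72 h PE. The groups overlapped, and the difference did not pass the test (log2 change 0.46 ± 0.51 SE, edgeR quasi-likelihood test, adjusted p = 0.621). A second unannotated peak, supercont1.309:120113-120134, lay on the star strand with 4 counts in all, so AGO1 counts on the hairpin were mostly on the strand that the prediction names as mature. Of the 201 predictions, 24 overlapped a peak of any class on their own strand, 16 of them an unannotated one. Apart from the 1 strong peak, those 16 unannotated peaks held 1 to 11 counts each. Counting either strand, or a distance of up to 100 bases, left the number of strong peaks on predictions at 1.

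Another 3 strong peaks lay within 1000 bases of an annotated miRNA peak on the same strand. The strongest of the 694, supercont1.222:644041-644066(+), is 25 bases long and starts 56 bases downstream of a peak on the precursor of aae-mir-2940, a miRNA known from mosquitoes. It had 432, 294 and 286 counts at 24 h PBM, against 342, 292 and 256 at 72 h PE, 1902 in all, while the neighbouring annotated peak held 860. The times overlapped and the change was small (log2 change 0.16 ± 0.35 SE, edgeR adjusted p = 0.840). The peak supercont1.268:888894-888919(-), also 25 bases long, lay 87 bases upstream of the peak on aae-mir-13-star-5p and held 55, 36 and 40 counts at 24 h PBM, against 53, 35 and 23 at 72 h PE. With 242 counts it was stronger than that neighbour, which held 24. The peak supercont1.107:509268-509353(+) lay 224 bases downstream of the aae-mir-308 peak and had 24 counts, against 5609 on the miRNA. The peaks beside aae-mir-13 and aae-mir-308 were singled out after their values were seen.

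Short peaks were common. Lengths ran from 15 to 702 bases with a median of 27 bases, against a median of 49 bases for the 1939 annotated peaks with 20 or more counts. Of the 694, 326 (47%) were 15 to 25 bases long, against 364 of 1939 (18.8%) among annotated peaks. The 77 annotated miRNA peaks of the same strength had a median of 24 bases, and many of the short peaks were below that. Peaks of 15 to 19 bases made up 23.8% of the 694 and 3.92% of the annotated peaks. Those of 20 to 24 bases made up 21.3% and 12.0%. A further 113 of the 694 were 26 to 40 bases and 255 were longer. The short peaks held 32562 counts and those over 40 bases 33113.

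**Figure D1:**
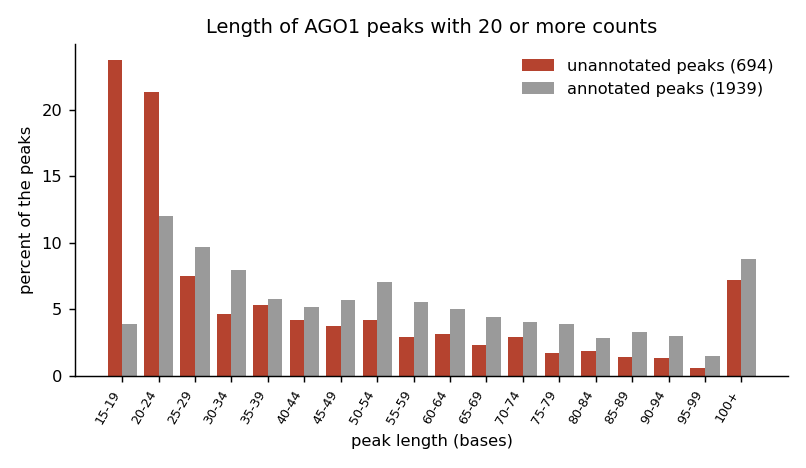
Percent of peaks (y) in bins of peak length in bases (x) for the 694 unannotated peaks and the 1939 annotated peaks with 20 or more counts. Peaks of 15 to 25 bases make up 47% of the unannotated and 18.8% of the annotated peaks.

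The minus strand held more of these peaks than the plus strand. On the plus strand were 299 (43.1%) and on the minus strand 395, against 987 on plus (50.9%) and 952 on minus among annotated peaks. Neighbouring peaks are not independent, and 40 of those on minus lay in 1 stretch of supercont1.109. Crowded stretches also lay on plus, with 14 peaks on supercont1.116, and supercont1.4657 held 23 on plus and 18 on minus. Of the short peaks 130 lay on the plus strand and 196 on the minus strand, of those over 40 bases 111 and 144, and of those of 26 to 40 bases 58 and 55. The share of the peaks' counts on the plus strand was 44.8%, 46.2% and 46.0% at 24 h PBM, against 47.1%, 46.3% and 46.1% at 72 h PE. The means differed by -0.82 percentage points (45.7 ± 0.73% at 24 h PBM and 46.5 ± 0.54% at 72 h PE, SD, n = 3 each, two-sided exact permutation test p = 0.2, where the smallest p that 3 against 3 allows is 0.1).

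The share of AGO1 counts on the whole set differed between the times by less than the spread among libraries. The 694 peaks held 13.4%, 15.1% and 11.4% of all counts at 24 h PBM, against 12.4%, 13.9% and 13.7% at 72 h PE. Means were 13.3 ± 1.87% at 24 h PBM and 13.3 ± 0.80% at 72 h PE (SD, n = 3 each, exact permutation test p = 1). Peaks of 15 to 25 bases alone held 6.43%, 6.67% and 4.11% at 24 h PBM, against 5.52%, 5.54% and 5.24% at 72 h PE, which overlap. Totals of single peaks were spread widely, with a median of 42 counts, 161 peaks of 100 or more and 25 of 500 or more. The 15 strongest peaks held 23.3% of the counts of the 694.

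At the selection threshold, the 40 peaks with a total of 20 had a median length of 24 bases (15 to 96) and 4 to 20 of their counts at 24 h PBM. The 41 unannotated peaks just outside, with a total of 19, had a median length of 26 bases (15 to 82) and 0 to 19 counts at 24 h PBM. Of the 694 peaks, 520 had a count in all 6 libraries. In 87, over 50% of the counts came from 1 library, and for 45 of these it was replicate 1 of 24 h PBM.

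The peaks lay on 358 supercontigs, the stretches of sequence of which AaegL3 consists, and 238 of these carried 1 peak each. The 21 supercontigs with 5 or more held 211 of the 694. The most crowded were supercont1.4657 with 41, supercont1.109 with 40, supercont1.116 with 19, supercont1.638 with 10 and supercont1.183 with 8. To follow stretches rather than single peaks, all peaks of any class within 1000 bases of each other on the same strand were joined to loci. The 694 peaks fell into 508 loci, 437 of which held no annotated peak, and 303 consisted of 1 peak alone. The 61 loci with at least 2 of the strong peaks spanned 61 to 12978 bases, with a median of 940.

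The largest source of counts was supercont1.4657. All 42 peaks on it lacked annotation and 41 were strong, 23 on the plus and 18 on the minus strand, and together they held 17280 counts or 22.5% of the counts of the 694. The plus strand peaks covered 97.4% of the 3812 bases from the first to the last of them, and the minus strand peaks 96.3% of 3815 bases. All 41 overlapped a peak of the other strand, as did 6 of the other 653 strong peaks. Individual peaks were 39 to 702 bases long, and 6 of the 15 strongest peaks of the whole set were here.

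The 2 strands carried nearly the same counts in every library. On the plus strand the peaks held 1222, 2000 and 1371 counts at 24 h PBM, against 837, 1984 and 1409 at 72 h PE. On the minus strand they held 1178, 1874 and 1344 counts at 24 h PBM, against 807, 1903 and 1351 at 72 h PE. The plus strand share thus lay between 50.5% and 51.6% in all 6 libraries. The longest peak, supercont1.4657:1447-2149(+), had 251, 445 and 286 counts at 24 h PBM, against 180, 437 and 263 at 72 h PE.

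The level of this supercontig differed among libraries of the same time more than between times. It took 1.81%, 4.28% and 2.95% of library counts at 24 h PBM, against 1.96%, 3.62% and 3.98% at 72 h PE (means 3.01 ± 1.24% at 24 h PBM and 3.19 ± 1.08% at 72 h PE, SD, n = 3 each, exact permutation test p = 0.9). The lowest library at each time was replicate 1. None of the 41 peaks passed with edgeR, with or without the replicate block, or with DESeq2, 0 had an unadjusted edgeR p under 0.05, and their log2 changes lay between -0.13 and 0.43. Without this supercontig the other 653 peaks held 11.6%, 10.8% and 8.42% of library counts at 24 h PBM, against 10.4%, 10.3% and 9.69% at 72 h PE.

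**Figure D2:**
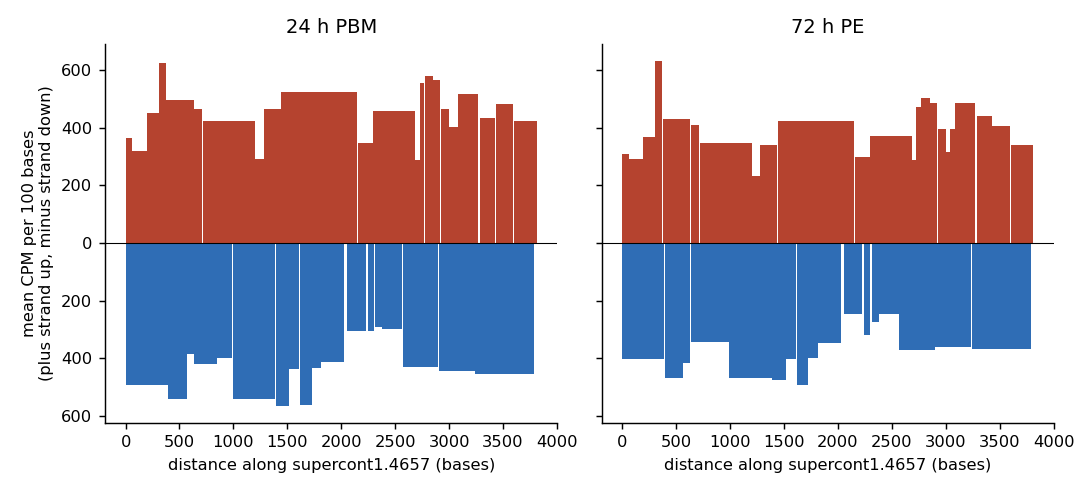
Mean CPM per 100 bases (y) of the 41 strong peaks on supercont1.4657 against the distance along it in bases (x), with plus strand peaks drawn up and minus strand peaks down, at 24 h PBM (left) and 72 h PE (right). Peaks cover 97.4% of the plus and 96.3% of the minus strand stretch at similar height.

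The locus with the most strong peaks on 1 strand was supercont1.109:1912787-1925765(-), where 40 lay over 12978 bases. They were 21 to 134 bases long with totals of 20 to 335, and 109 weaker unannotated peaks and 15 annotated ones lay between them. The annotated peaks with the most counts in it, 82, were on AAEL004169, mostly in its 3′UTR. The locus had 696, 452 and 584 counts at 24 h PBM, against 421, 529 and 324 at 72 h PE, of which 688, 416 and 560 at 24 h PBM and 410, 508 and 308 at 72 h PE came from unannotated peaks. After scaling all libraries of 24 h PBM lay above those of 72 h PE, but the change did not pass the test (log2 change 0.68 ± 0.30 SE, edgeR adjusted p = 0.180). Of its 40 strong peaks 24 had a log2 change above 0 and 16 below. None passed in the edgeR fit without the block or with DESeq2, and 4 had an unadjusted p under 0.05 in that edgeR fit. With the replicate block 2 were higher, supercont1.109:1916707-1916753(-) (log2 change 1.19, edgeR adjusted p = 0.0125) and supercont1.109:1918992-1919063(-) (log2 change 1.67, edgeR adjusted p = 0.0301), both singled out after their values were seen.

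On supercont1.116 a run of unannotated peaks was lower at 24 h PBM. The locus supercont1.116:1034893-1037681(+) consists of 30 unannotated peaks, 14 of them strong, over 2788 bases. It had 54, 47 and 40 counts at 24 h PBM, against 174, 278 and 150 at 72 h PE. The libraries of the times did not overlap, and the locus was 3.56-fold lower at 24 h PBM (538 ± 66.3 CPM at 24 h PBM and 1910 ± 161 CPM at 72 h PE, SD, n = 3 each, log2 change -1.83 ± 0.34 SE, edgeR adjusted p = 0.00172). All 14 strong peaks had a log2 change below 0, and 5 of them passed the test on their own. A smaller locus upstream, supercont1.116:1032436-1033240(+), with 5 unannotated peaks, had 8, 16 and 19 counts at 24 h PBM, against 36, 104 and 53 at 72 h PE (log2 change -1.78 ± 0.50 SE, edgeR adjusted p = 0.0332). That second call was lost without any 1 of 4 libraries (edgeR adjusted p = 0.172 without replicate 2 of 72 h PE, 0.0974 without replicate 3 of 72 h PE, 0.0606 without replicate 1 and 0.0837 without replicate 2 of 24 h PBM), and with loci of any count tested (0.0649). The nearest annotated peak on the strand, 29694 to 30555 bases from the strong peaks named here, was a 1-count peak on AAEL004350, annotated as a putative janus A.

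**Figure D3:**
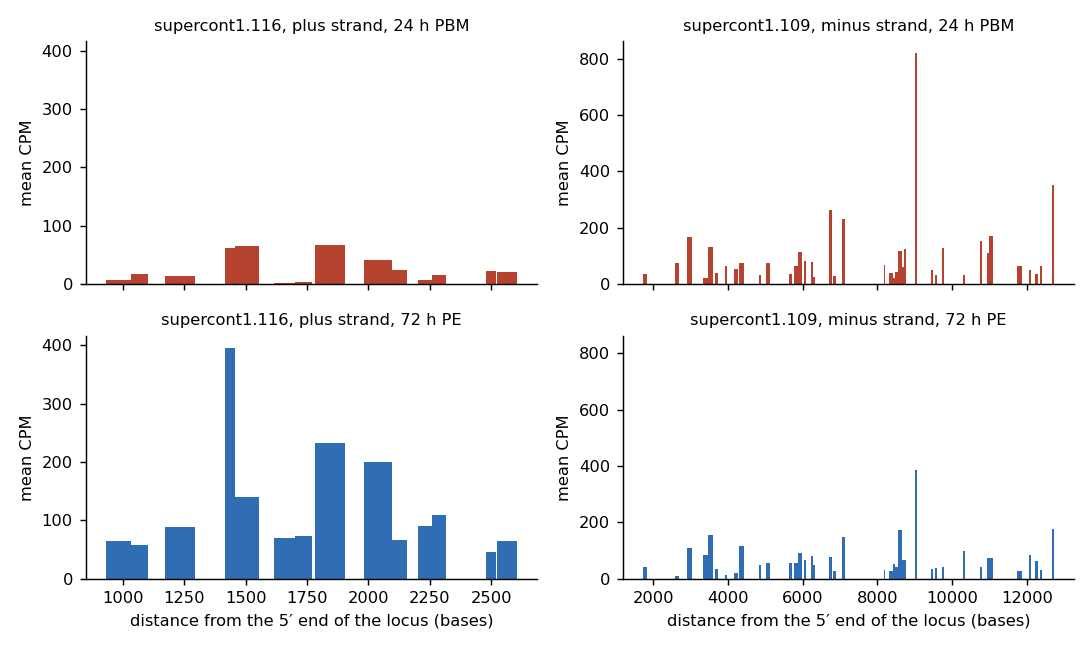
Mean CPM (y) of the strong unannotated peaks along the loci on supercont1.116 (left) and supercont1.109 (right) against the distance from the 5′ end of the locus in bases (x), at 24 h PBM (top) and 72 h PE (bottom). Bars under 40 bases are drawn 40 bases wide, and the 14 peaks on supercont1.116 are all lower at 24 h PBM.

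Another 4 loci held 6 strong peaks each. The locus supercont1.32:3144702-3148767(+), with 6 strong peaks among 31, had 246, 133 and 183 counts at 24 h PBM, against 367, 724 and 399 at 72 h PE, and was 2.23-fold lower (log2 change -1.15 ± 0.31 SE, edgeR adjusted p = 0.0266). Most of these counts, 1442, were on peaks of AAEL017096, while its unannotated peaks held 96, 50 and 46 counts at 24 h PBM, against 115, 200 and 103 at 72 h PE. The call was lost without replicate 2 of 24 h PBM (edgeR adjusted p = 0.126), replicate 2 of 72 h PE (0.0827) or replicate 3 of 72 h PE (0.0717). The locus supercont1.3129:6678-7241(-), whose 1 annotated peak is on a 5.8S ribosomal RNA gene (AAEL017904), had 181, 289 and 90 counts at 24 h PBM, against 145, 176 and 77 at 72 h PE, which overlap after scaling (log2 change 0.76 ± 0.40 SE, edgeR adjusted p = 0.265). Neither supercont1.115:927773-928703(-) nor supercont1.183:226529-227646(-), each with 6 strong peaks, passed the test (log2 change 0.60 ± 0.37 SE with adjusted p = 0.339, and 0.81 ± 0.36 SE with adjusted p = 0.181, edgeR).

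Across the set, 30 of the 694 peaks were higher at 24 h PBM and 13 lower at an adjusted p under 0.05 (edgeR quasi-likelihood test over all peaks of 20 or more counts). This is 4.32% higher and 1.87% lower, where over all 2633 peaks tested, of any class, 14.2% were called higher and 3.68% lower. Neither share of the 694 is above that background. The median log2 change of the 694 was 0.23, against 0.02 over all 2633. Unadjusted p lay under 0.05 for 101 of the 694. The level of these changes depends on how libraries are scaled, since scaling by library totals in place of TMM moved the median of all 2633 by -0.27 and gave 23 higher and 20 lower among the 694.

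No label says that libraries of the same replicate number belong together. As an alternative, a fit with the replicate number as a block called 51 of the 694 higher and 20 lower, against 16.1% and 6% of all peaks. Leaving out replicate 1 of 24 h PBM gave 47 higher, and leaving out replicate 2 of 72 h PE gave 19. The lower calls came to 4 to 7 whichever library was left out. For fits without 1 library, of peaks or loci, the share over all peaks or loci was not taken. Those counts therefore do not set the 694 apart from other peaks. By locus, 29 of 508 were higher and 6 lower, against 5.27% and 3.06% of all 2355 loci tested. Locus counts include those of annotated peaks, which were present in 13 of these 29 loci and 3 of these 6. With the block 45 loci were higher and 9 lower, against 7.39% and 5.56%. The count of higher loci was 13 without replicate 2 of 72 h PE and 17 without replicate 3 of 72 h PE, and the count of lower loci was 3 without either of these or without replicate 2 of 24 h PBM.

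**Figure D4:**
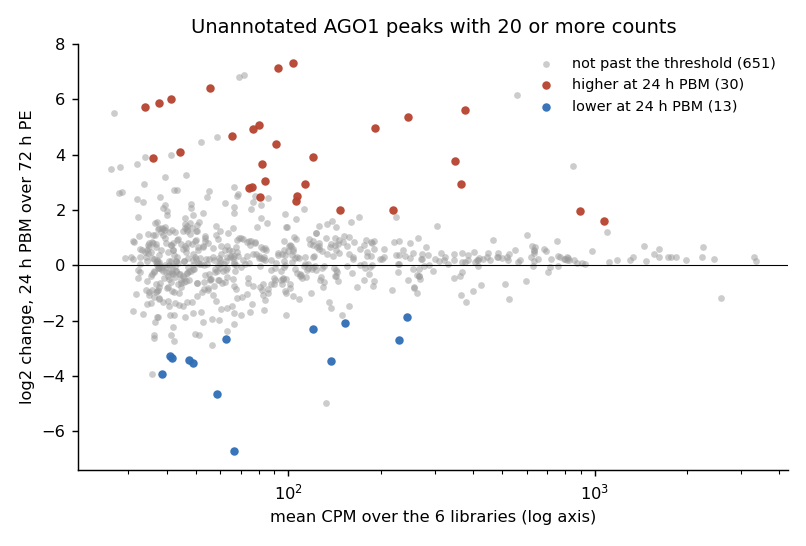
Log2 change at 24 h PBM over 72 h PE (y) against the mean CPM over the 6 libraries (x, log axis) for the 694 peaks. The 30 peaks called higher and the 13 called lower stand out in colour, and 53 others with an absolute log2 change of 2 or more did not pass.

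The 30 peaks called higher included 6 without a count at 72 h PE, and among the other 24 the log2 change was 1.60 to 5.62. In 28 of the 30 the libraries of the times did not overlap, likewise in 13 of 13 called lower. The test chose these peaks on the same counts, so this separation is no further support. By length, 13 of the 30 were 15 to 25 bases long, and 8 of the 30 lay within 1000 bases of an annotated peak on their strand. Of the 53 others with an absolute log2 change of 2 or more that did not pass, 32 had over 50% of their counts in 1 library.

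For 5 of the peaks that rose most, the nearest annotated peak on the strand was on AAEL006138, a cathepsin b gene or a gene annotated as HR3, E74 or CYP18A1. Their distances differed widely and are given with each. The peak supercont1.191:167354-167423(-) had 112, 62 and 47 counts at 24 h PBM, against 0, 2 and 2 at 72 h PE, and lay 1 base upstream of a coding sequence peak of AAEL006138. All 24 h PBM libraries were far above all 72 h PE libraries (741 ± 109 CPM at 24 h PBM and 13.6 ± 12.4 CPM at 72 h PE, SD, n = 3 each, log2 change 5.62 ± 0.70 SE, edgeR adjusted p = 2.16e-06). The peak supercont1.414:343230-343265(+), 390 bases downstream of a coding peak of AAEL009642, annotated as cathepsin b, a protease, had 26, 40 and 57 counts at 24 h PBM, against 0, 2 and 1 at 72 h PE. The libraries did not overlap, and the scaled sums stood in a ratio of 40.8 (95% counting interval 13.6 to 201, for counting error only, edgeR adjusted p = 3.07e-05). A 3′UTR peak on the other strand lay 204 bases away.

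Ecdysteroids are the steroid hormones that rise after a blood meal and switch on yolk genes in the mosquito fat body. A peak 657 bases downstream of the 3′UTR peak of AAEL009588, annotated as HR3, a nuclear receptor induced by ecdysone in Drosophila, was supercont1.410:347916-347948(-). It had 14, 17 and 23 counts at 24 h PBM and 0 in each library at 72 h PE, which is at least 17.9-fold higher against a floor of 3 counts over the 3 libraries (edgeR adjusted p = 0.000108). The locus around it, supercont1.410:346317-349450(-), had 23, 20 and 33 counts at 24 h PBM and 0 throughout at 72 h PE, 4, 2 and 6 of them on AAEL009588 peaks at 24 h PBM. It was at least 29.4-fold higher (edgeR adjusted p = 0.00012).

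The peak supercont1.15:121847-121869(+), 1241 bases downstream of a coding peak of AAEL000741, annotated as E74, an ETS transcription factor induced early by ecdysone in Drosophila, had 11, 4 and 7 counts at 24 h PBM and 0 in each library at 72 h PE. It was at least 7.30-fold higher (edgeR adjusted p = 0.0103, and 0.1 when peaks of any count were tested), and the 6 unannotated peaks of its locus, supercont1.15:121847-123323(+), held 13, 10 and 12 counts at 24 h PBM and 0 at 72 h PE (at least 13.6-fold higher, edgeR adjusted p = 0.00206). The peak supercont1.133:2250024-2250094(+) lay 1853 bases downstream of a coding peak of AAEL004870, annotated as CYP18A1, which in Drosophila inactivates ecdysteroids. It had 13, 8 and 4 counts at 24 h PBM and 0 in each library at 72 h PE, at least 8.29-fold higher (edgeR adjusted p = 0.00501). These 5 neighbours are named because they are nearest, and no test of that group of genes was made.

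Repeat annotation lay beside another. The peak supercont1.13:4014159-4014237(+) had 15, 13 and 21 counts at 24 h PBM and 0 in each library at 72 h PE, at least 16.3-fold higher (edgeR adjusted p = 0.000145), and lay 715 bases upstream of a peak on Gypsy44-I_AG, a retrotransposon of the Gypsy family. Its locus, supercont1.13:4014159-4020665(+), holds 58 peaks, 30 of them annotated and 28 of these on Gypsy44-I_AG. It had 86, 125 and 98 counts at 24 h PBM, against 0, 2 and 3 at 72 h PE (1230 ± 436 CPM at 24 h PBM and 16.7 ± 17.6 CPM at 72 h PE, SD, n = 3 each, log2 change 6.13 ± 0.63 SE, edgeR adjusted p = 1.8e-06). Unannotated peaks gave 51, 81 and 61 of these counts at 24 h PBM, against 0, 2 and 3 at 72 h PE.

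The other named peaks that rose were short, 16 to 24 bases long. The 16-base peak supercont1.397:918157-918173(-) had 13, 7 and 11 counts at 24 h PBM and 0 in each library at 72 h PE, at least 10.3-fold higher (edgeR adjusted p = 0.00126), with the next peak of any class on its strand 40589 bases away. The 24-base peak supercont1.318:181209-181233(-) had 23, 42 and 33 counts at 24 h PBM, against 2, 1 and 0 at 72 h PE, with no overlap (ratio 32.5, counting interval 10.8 to 160, edgeR adjusted p = 8.28e-05). The 16-base peak supercont1.187:1679104-1679120(-) had 15, 12 and 14 counts at 24 h PBM, against 0, 0 and 1 at 72 h PE, with no overlap (ratio 40.8, counting interval 6.93 to 1651, edgeR adjusted p = 0.00101). The 18-base peak supercont1.73:1808540-1808558(+) had the lowest total of those called, 10, 5 and 5 counts at 24 h PBM and 0 in each library at 72 h PE. Its counts at 24 h PBM alone carried it to the selection threshold of 20. It was at least 6.64-fold higher (edgeR adjusted p = 0.0193). The call was lost when peaks of any count were tested (edgeR adjusted p = 0.174) or without replicate 2 of 72 h PE (edgeR adjusted p = 0.0534). The remaining 20 peaks called higher had log2 changes of 1.60 to 5.08.

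The peaks that fell most lay beside peaks of an antimicrobial peptide gene. Both supercont1.31:652126-652164(+) and supercont1.31:652600-652637(+) lay within 10 bases of annotated peaks of AAEL017536, annotated as holotricin, a glycine-rich repeat protein and antimicrobial peptide, at 5 and 9 bases. The first had 0 counts in each library at 24 h PBM, against 3, 22 and 15 at 72 h PE, at least 13.4-fold lower (edgeR adjusted p = 0.000865). The second had 1, 0 and 0 counts at 24 h PBM, against 18, 13 and 2 at 72 h PE (ratio 0.0302, counting interval 0.000741 to 0.18, edgeR adjusted p = 0.00552), a call lost without replicate 1 of 72 h PE (edgeR adjusted p = 0.0803) or with peaks of any count tested (0.0761). Their locus, supercont1.31:651629-653281(+), had 2, 1 and 0 counts at 24 h PBM, against 26, 55 and 22 at 72 h PE, with 1, 1 and 0 on annotated peaks at 24 h PBM and 5, 19 and 5 at 72 h PE (ratio 0.0338, counting interval 0.00687 to 0.102, edgeR adjusted p = 0.000387).

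Of the other lower calls, 7 were on supercont1.116. The strongest of the named ones there, supercont1.116:1036310-1036348(+), had 4, 4 and 8 counts at 24 h PBM, against 32, 45 and 36 at 72 h PE (log2 change -2.71 ± 0.63 SE, edgeR adjusted p = 0.00234). The named others start at 1036595, 1037093 and 1037153. The first had 0, 1 and 0 counts at 24 h PBM, against 10, 8 and 3 at 72 h PE (edgeR adjusted p = 0.0384). The next had 1, 1 and 0 at 24 h PBM, against 2, 17 and 9 at 72 h PE (edgeR adjusted p = 0.0249), and the last 3, 2 and 0 at 24 h PBM, against 7, 21 and 6 at 72 h PE (edgeR adjusted p = 0.0435). Those 3 calls were lost with DESeq2 and with peaks of any count tested (edgeR adjusted p = 0.369 for each). They were also lost in 5 or 6 of the 6 fits that leave out 1 library, with edgeR adjusted p up to 0.145, 0.187 and 0.291 there. The 23-base peak supercont1.417:840541-840564(+), alone in its locus, had 1, 3 and 2 counts at 24 h PBM, against 20, 23 and 27 at 72 h PE (log2 change -3.45 ± 0.75 SE, edgeR adjusted p = 0.00136).

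A further 3 peaks passed narrowly, and each lost its call with DESeq2, with peaks of any count tested (edgeR adjusted p = 0.369) and in 5 or 6 of the 6 fits that leave out 1 library (edgeR adjusted p up to 0.171, 0.18 and 0.206 in the order given here). The peak supercont1.566:616522-616591(-) had 1, 0 and 1 counts at 24 h PBM, against 8, 7 and 9 at 72 h PE (edgeR adjusted p = 0.0276). The peak supercont1.65:615855-615876(+), 599 bases upstream of a coding peak of AAEL002709, annotated as a spliceosomal protein, had 2, 0 and 0 counts at 24 h PBM, against 7, 8 and 7 at 72 h PE (edgeR adjusted p = 0.0441). The peak supercont1.48:2291669-2291707(-) had 1, 1 and 0 counts at 24 h PBM, against 6, 13 and 4 at 72 h PE (edgeR adjusted p = 0.0438), and its nearest annotated peak, 18466 bases away, was on the nuclear receptor gene AAEL002062.

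**Figure D5:**
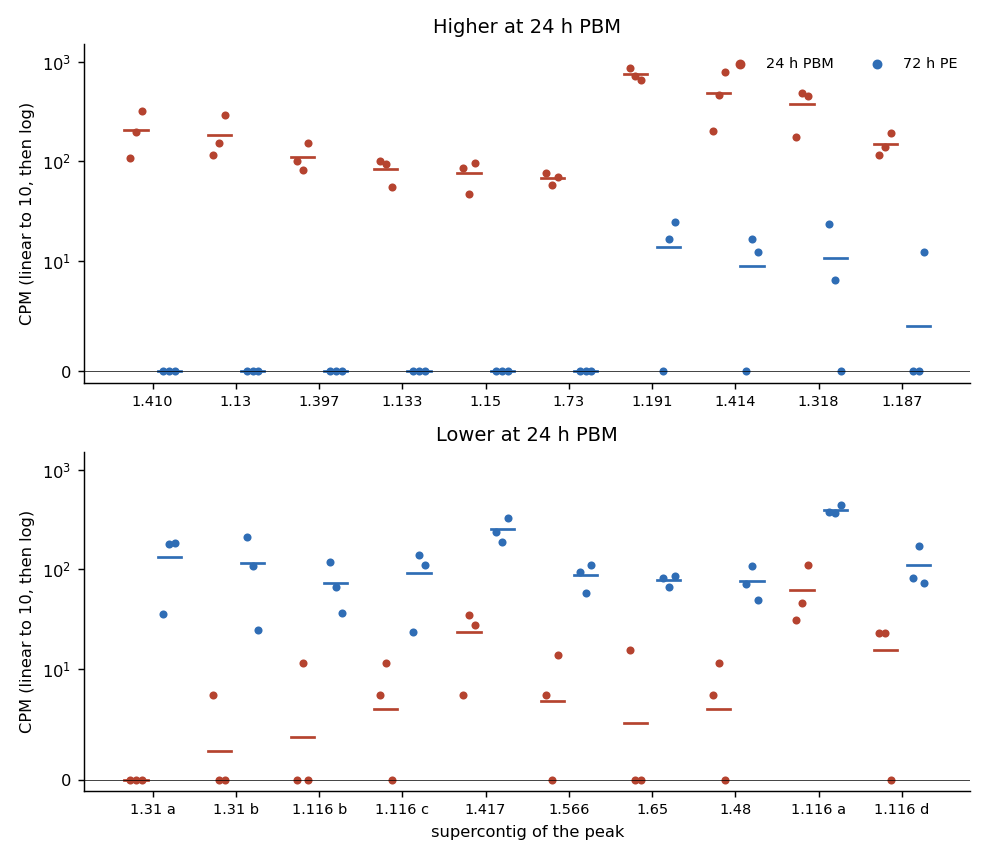
CPM in each library (y, linear to 10 and then logarithmic) for the 10 peaks called higher (top) and the 10 called lower (bottom) with the largest changes among called peaks whose libraries do not overlap between times, by supercontig (x), where letters follow position along the supercontig and bars are means of 3 libraries. At 24 h PBM each library stands above all 72 h PE libraries in the top panel and below them in the bottom panel.

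Of the 15 with the highest totals, none passed in the edgeR fit without the replicate block or with DESeq2, and 0 had an unadjusted p under 0.05 in that edgeR fit. With the block 1 passed. This peak, supercont1.84:273890-273971(+), had 371, 66 and 78 counts at 24 h PBM, against 619, 211 and 144 at 72 h PE. It was lower at 24 h PBM at each of the 3 replicate numbers, while libraries of a time also differed widely. Without the block it did not pass (log2 change -1.20 ± 0.61 SE, edgeR adjusted p = 0.222), and with it it did (log2 change -1.09, edgeR adjusted p = 0.00475). It also passed without replicate 1 of 24 h PBM (edgeR adjusted p = 0.0319), and its adjusted p over all alternatives was 0.00475 to 0.897. The 31-base peak supercont1.222:1284160-1284191(+) had 394, 205 and 212 counts at 24 h PBM, against 187, 163 and 141 at 72 h PE, and was the only one of the 15 whose scaled libraries did not overlap (log2 change 0.66 ± 0.37 SE, edgeR adjusted p = 0.261). The short peak supercont1.40:1457257-1457277(-) had 395, 283 and 118 counts at 24 h PBM, against 190, 273 and 184 at 72 h PE (log2 change 0.24 ± 0.38 SE, edgeR adjusted p = 0.751).

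Among the 15 were also short peaks whose counts varied widely among libraries. The peak supercont1.7:3067607-3067630(+) had 402, 150 and 35 counts at 24 h PBM, against 164, 149 and 72 at 72 h PE. The peak supercont1.53:2533128-2533149(-) had 403, 177 and 53 counts at 24 h PBM, against 127, 161 and 86 at 72 h PE. In both, replicate 1 was the highest and replicate 3 the lowest at 24 h PBM. The peak supercont1.1344:48990-49007(+) had 101, 294 and 87 counts at 24 h PBM, against 72, 222 and 52 at 72 h PE, and there replicate 2 was the highest at both times. Steadier were supercont1.303:585433-585457(-), with 155, 165 and 201 counts at 24 h PBM against 109, 186 and 159 at 72 h PE, and supercont1.1320:66051-66069(-), with 205, 167 and 81 at 24 h PBM against 142, 156 and 101 at 72 h PE.

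Most strong peaks were far from annotated ones. On the same supercontig and strand 609 of the 694 had an annotated peak of any strength, at a median distance of 34314 bases (quartiles 4693 and 125750), and 85 had none. Within 100 bases lay 19, within 1000 bases 80 (11.5%) and within 10000 bases 202. Of the 80, 40 had a coding sequence peak as the nearest, 14 a ribosomal RNA peak, 9 a 3′UTR peak and 4 an intron peak. Beside coding sequence or 3′UTR peaks the strong peak lay downstream in 39 cases and upstream in 10, so that these peaks lay mostly past the 3′ side of the annotated peak. Of the 80, 8 were called higher and 3 lower at 24 h PBM, where 14.2% of all 2633 peaks tested were called higher and 3.68% lower. An annotated peak of the opposite strand lay within 1000 bases of 32 of the 694.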

How the data were processed

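AGO1 CLIP-seq was done on fat body at 24 h PBM and 72 h PE. The deposited peak table holds raw counts per peak in 6 library columns, 3 for each of the 2 samples, over 1 common set of peaks made by the authors. The peak counts used to choose members equal the sum over the columns. Positions are on AaegL3 supercontigs with AaegL3.3 annotation, per the file headers, printed as in the file, which does not say whether they start at 0 or 1; peak length is end minus start. Tools listed with no role in the submitters' processing notes are R 3.1.2, bedtools 2.17.0, TopHat2 2.0.14 and Bowtie2 2.2.3. The peak finding method is not given in the sources used here. Predicted miRNAs are in a table held here in part, with the authors' miRDeep2 score and read counts, per the file headers. The small RNA tables were not used.

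Peaks or loci with 20 or more counts were fitted with edgeR 4.0.16 in R 4.3.3 (TMM scaling, robust quasi-likelihood test, 24 h PBM over 72 h PE, Benjamini-Hochberg at 0.05 over all 2633 peaks or 2355 loci). CPM are counts over the TMM-scaled library total. The SE is the log2 change over the square root of F. A floor of 3 counts over the 3 libraries of a time gives bounds. Shares were compared by exact permutation in Python 3.11.15 with scipy 1.17.1. Deviations of same-numbered libraries from their time's mean correlated at 0.290, 0.159 and 0.185 over peaks. Those of libraries with unlike numbers correlated at -0.196 to 0.0392. Deviations within a time cancel out, so positive values for same numbers push those for unlike numbers towards negative ones. The labels state no pairing and these values do not establish one, so the blocked fit is given beside the counts as an alternative. The script was tested on simulated counts. Alternatives were library totals, DESeq2 1.42.0, other filters and joins, the block and each library left out.

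Named items are the 15 strongest peaks, up to 10 called in each direction without overlap, the 8 loci with most strong peaks, up to 5 called loci in each direction, peaks on predicted miRNAs and the 5 fullest supercontigs. The members and lists were chosen with earlier results of these data known. No sequence of the AaegL3 assembly was used here.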

Additional observations from a re-analysis of the deposited data

How the results depend on the processing

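Against 30 higher and 13 lower of 694 peaks, the replicate block gave 51 and 20, library totals 23 and 20, and DESeq2 29 and 4. No filter gave 20 and 4, also of 694. A total of 50 or more gave 18 and 8 of 302 peaks, and filterByExpr 20 and 10 of 248. A selection at 10 counts gave 52 higher and 9 lower of 1366 peaks, and at 40 counts 22 and 6 of 364. Leaving out supercont1.4657, an alternative chosen after seeing the data, gave 31 and 12 of 653. Settings with unlike numbers of peaks cannot be compared by these counts alone. The share over all peaks was taken for the main fit and the block only. Leaving out 1 library gave 19 to 47 higher and 4 to 7 lower. For loci, against 29 and 6, library totals gave 19 and 11, the block 45 and 9, and leaving out 1 library 13 to 36 and 3 to 7. The other locus settings gave 20 to 32 higher and 4 to 6 lower. Of 20 named peaks that were called, 11 stayed called in every fit that tested them, as did 7 of 10 named loci. None of the named calls changed direction. The block ended none of these calls and added 1, of supercont1.84:273890-273971(+) at an edgeR adjusted p of 0.00475, which also passed without replicate 1 of 24 h PBM (0.0319). The difference in share of counts, -0.03 percentage points, was 3.05 when taken over unannotated counts alone. On that base the peaks held a larger share, with means of 50.1% at 24 h PBM and 47.0% at 72 h PE. The libraries of the times overlapped there (exact permutation test p = 0.3). The plus strand difference was 0.22 without the 10 strongest peaks (exact permutation test p = 0.9). The causes were not tested. With 20 counts over 6 libraries, a peak has few counts in each, so moderate changes of the weaker peaks may not be detectable at this depth.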
